A study of Mus musculus with 12 samples.

Results

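The comparison set kidneys of mice given cisplatin together with pregnenolone-16α-carbonitrile (PCN) against kidneys of mice given cisplatin without PCN. It used the 3 cisplatin+PCN libraries and the 3 cisplatin libraries, 6 of the 12 RNA-seq libraries of the series, and every gene with at least 1 FPKM (fragments per kilobase of gene, scaled to the mapped fragments of the library) in at least 3 of these 6 libraries. That rule kept 12689 of the 52636 genes in the table. All mice were male wild-type C57BL/6 animals of 8 weeks. The cisplatin+PCN group received PCN by gavage at 40 mg/kg per day for 4 days before cisplatin and for 3 days after it, while the cisplatin group received the corn oil vehicle on the same days, and both groups received 1 intraperitoneal dose of cisplatin at 20 mg/kg. Kidneys were taken 4 days after cisplatin. The remaining libraries, 3 from control mice (corn oil and saline) and 3 from PCN mice (PCN and saline), stayed out of the fit and give background levels. In the labels' protocol text the cisplatin group appears both in the list of PCN-pretreated mice and in the list of oil-treated ones, so the groups here follow the sample titles. The labels give more animals per group than libraries and do not say outright that each library is a different animal, so the p-values speak only of the spread among the libraries at hand.

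PCN is the standard agonist of the rodent pregnane X receptor (PXR, gene Nr1i2), a nuclear receptor that pairs with the retinoid X receptor on DNA and is best known in liver and gut, where it induces cytochromes P450, conjugating enzymes and drug transporters. Cisplatin is a platinum drug that crosslinks DNA. Proximal tubule cells take it up from the blood, chiefly by the organic cation transporter Slc22a2, and kidney damage limits its use. In injured proximal tubule, transporters and mitochondrial enzymes are lost, p53 targets and injury proteins such as Kim-1 (Havcr1) and lipocalin 2 (Lcn2) are made, and cytokines and clotting proteins follow.

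The 6 libraries held 18914607 to 26530485 reads assigned to genes. In the deposited values 1 FPKM stood for 19.3 to 27.2 reads per kilobase of gene. The library total implied by these values was not the number of assigned reads. It was below that number in cisplatin+PCN replicate 1 (25135398 against 26394861). In every other of these libraries it was above, as in cisplatin+PCN replicate 2 (25458637 against 22980233). Mitochondrially encoded transcripts took 6.12% to 7.81% of the reads in these libraries and 8.78% to 10.03% in the control and PCN libraries. On the first principal component of the tested genes (50.5% of the variance) the cisplatin libraries lay at -25.8 to -11.5 and the cisplatin+PCN libraries at 4.14 to 30.4, with cisplatin+PCN replicate 2 nearest the cisplatin group and replicate 1 farthest from it. The median SD of a gene within a group, on the log2(FPKM + 1) scale, was 0.140 for cisplatin and 0.128 for cisplatin+PCN, against 0.0833 for control and 0.0723 for PCN. Kidney identity held in every library: Umod, the uromodulin gene of the thick ascending limb, lay between 683 and 1501 FPKM in the 6 libraries. In these bulk samples fewer cells of a type and less RNA per cell cannot be told apart.

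With cisplatin present in both groups, transporter and metabolic genes of the tubule tended to be higher in the PCN-treated kidneys and injury, clotting, AP-1 and matrix genes lower. All 3 cisplatin+PCN libraries stood above all 3 cisplatin libraries for 20 of 40 genes of proximal tubule segments 1 and 2, and below them for 13 of 29 injury markers, while almost no single gene passed the threshold after adjustment for 12689 tests. The limma test with Benjamini-Hochberg adjustment called 1 gene higher, 0.00788% of the genes tested, and 2 genes lower, 0.0158%. Unadjusted p was under 0.05 for 2917 genes, 1419 of them higher and 1498 lower. All 3 cisplatin+PCN libraries lay above all 3 cisplatin libraries for 1788 genes (14.1%) and below them for 1954 (15.4%). The median log2 difference over all genes was -0.01. When all 12 libraries entered the fit, 1062 genes (8.37%) were called higher and 1062 (8.37%) lower. That fit pools the spread of the 2 cisplatin groups with the smaller spread of the control and PCN groups, so the fit on the 6 libraries is the one used for each adjusted p below, and calls of the 12-library fit are given as counts beside it. No member of the 52 gene lists described below was called in the 6-library fit. Lists are therefore given by the number of members whose libraries did not overlap, to be read against 14.1% and 15.4%, and by their median. Members of a list are measured in the same 6 libraries and can move together, so their number is not a number of independent observations. Examples within a list, other than panel genes, were picked after values were seen, many but not all of them by the size of their difference.

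**Figure D1:**
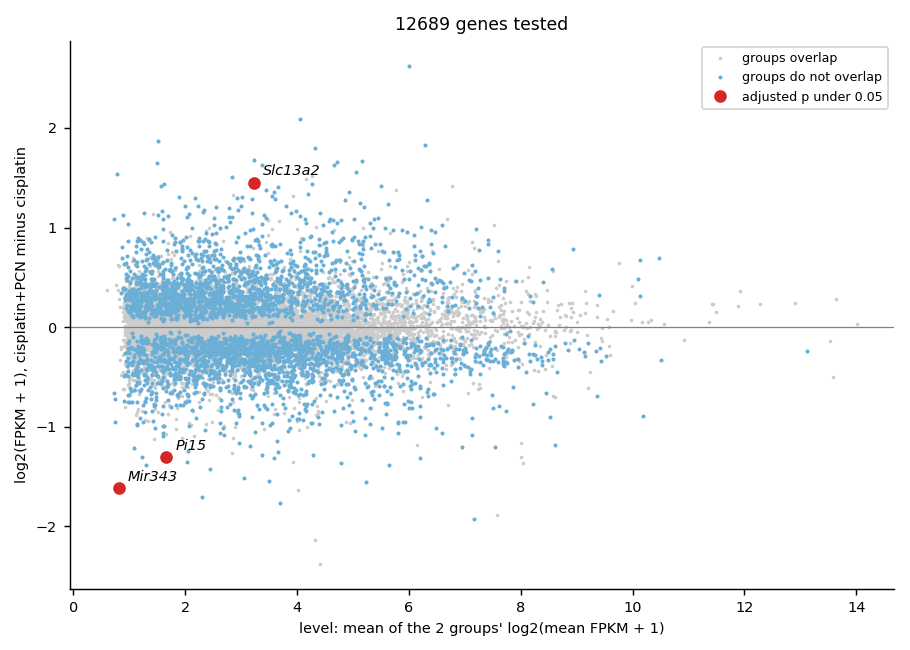
Each point is 1 of the 12689 tested genes: its level, the mean of both groups' log2(mean FPKM + 1), on the horizontal axis and the log2(FPKM + 1) difference, cisplatin+PCN minus cisplatin, on the vertical axis; blue points are genes whose groups do not overlap. The 3 called genes are marked in red; the cloud is centred near 0, with a median of -0.01.

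The gene called higher was Slc13a2, a sodium-coupled transporter that takes citrate and other dicarboxylates back from the tubule lumen (ENSMUSG00000001095, chr11:78397087-78422217, minus strand, GRCm38 coordinates of the deposited table). Slc13a2 read 4.09, 5.53 and 4.44 FPKM in cisplatin replicates 1, 2 and 3, and 15.7, 13.2 and 14.6 in cisplatin+PCN replicates 1, 2 and 3; this order of replicates is kept throughout. Control libraries read 17.3, 18.9 and 15.6 and PCN libraries 18.8, 21.2 and 20.8. The 2 cisplatin groups did not overlap. Of the cisplatin+PCN libraries, replicate 1 lay within the control range and the others just under it. The mean rose from 4.69 ± 0.749 to 14.5 ± 1.24 FPKM (SD, n = 3 each), 3.10-fold, with a log2 difference of 1.45 ± 0.12 (SE, 95% interval 1.17 to 1.73) and an adjusted p of 0.0392. The value rests on 790 reads in the cisplatin libraries and 2656 in the cisplatin+PCN libraries.

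Pi15, which encodes a secreted peptidase inhibitor (ENSMUSG00000067780, chr1:17601901-17630939, plus strand), was called lower. Pi15 read 3.79, 3.59 and 4.50 FPKM with cisplatin and 0.828, 1.23 and 0.982 with cisplatin and PCN, while control libraries averaged 0.268 and PCN libraries 0.344. The lowest cisplatin library stood far above the highest cisplatin+PCN library, and all of the latter were above every control library. The mean was 3.91-fold lower, the log2 difference -1.30 ± 0.12 (SE) and the adjusted p 0.0463. The other gene called lower was Mir343, a microRNA gene of 1 short exon inside Ercc2 on the same strand (chr7:19386643-19386717). It read 2.08, 1.73 and 2.45 FPKM with cisplatin and 0 in each cisplatin+PCN library, with an adjusted p of 0.0342, and these values rest on 11 reads against 0. Ercc2, a DNA repair helicase whose transcript covers the same bases, averaged 2.49 and 2.54 FPKM, and small RNA is poorly held by standard RNA-seq libraries, so no fold is given. Because Mir343 passed the minimum only through the cisplatin libraries, it had to differ. The calls of Slc13a2 and Pi15 held with cisplatin replicate 2 left out (adjusted p = 0.0413 for both) and were lost when any other of the 6 libraries was left out, with adjusted p of 0.0564 to 0.321.

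The next genes by p were Fgb, Nat8f6 and Eif4ebp1, all at an adjusted p of 0.0772; Nat8f6 and Eif4ebp1 belong to no list and were picked after their values were seen. Nat8f6, of the N-acetyltransferase 8 family of the proximal tubule, read 0.795, 0.535 and 0.173 FPKM with cisplatin and 5.25, 3.40 and 4.75 with cisplatin and PCN, against 89.5 in control. It passed the minimum only through the cisplatin+PCN libraries, so that its groups had to differ. Both groups stood far under control, and reads of near-identical family members may be split between them. Nat8f6 overlaps Nat8f5 on the same strand, which averaged 4.19 FPKM with cisplatin and 16.5 with cisplatin and PCN. Eif4ebp1, an inhibitor of cap-dependent translation, read 49.0, 41.2 and 48.8 FPKM with cisplatin and 20.0, 24.1 and 21.9 with cisplatin and PCN, against 7.64 in control. The widest positive difference of any gene was that of Keg1, a kidney-expressed glycine N-acyltransferase-like gene also picked after its values were seen. Keg1 read 14.2, 58.1 and 11.2 FPKM with cisplatin and 187, 96.5 and 140 with cisplatin and PCN (log2 difference 2.63 ± 0.58, adjusted p = 0.107), and the groups did not overlap.

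**Figure D2:**
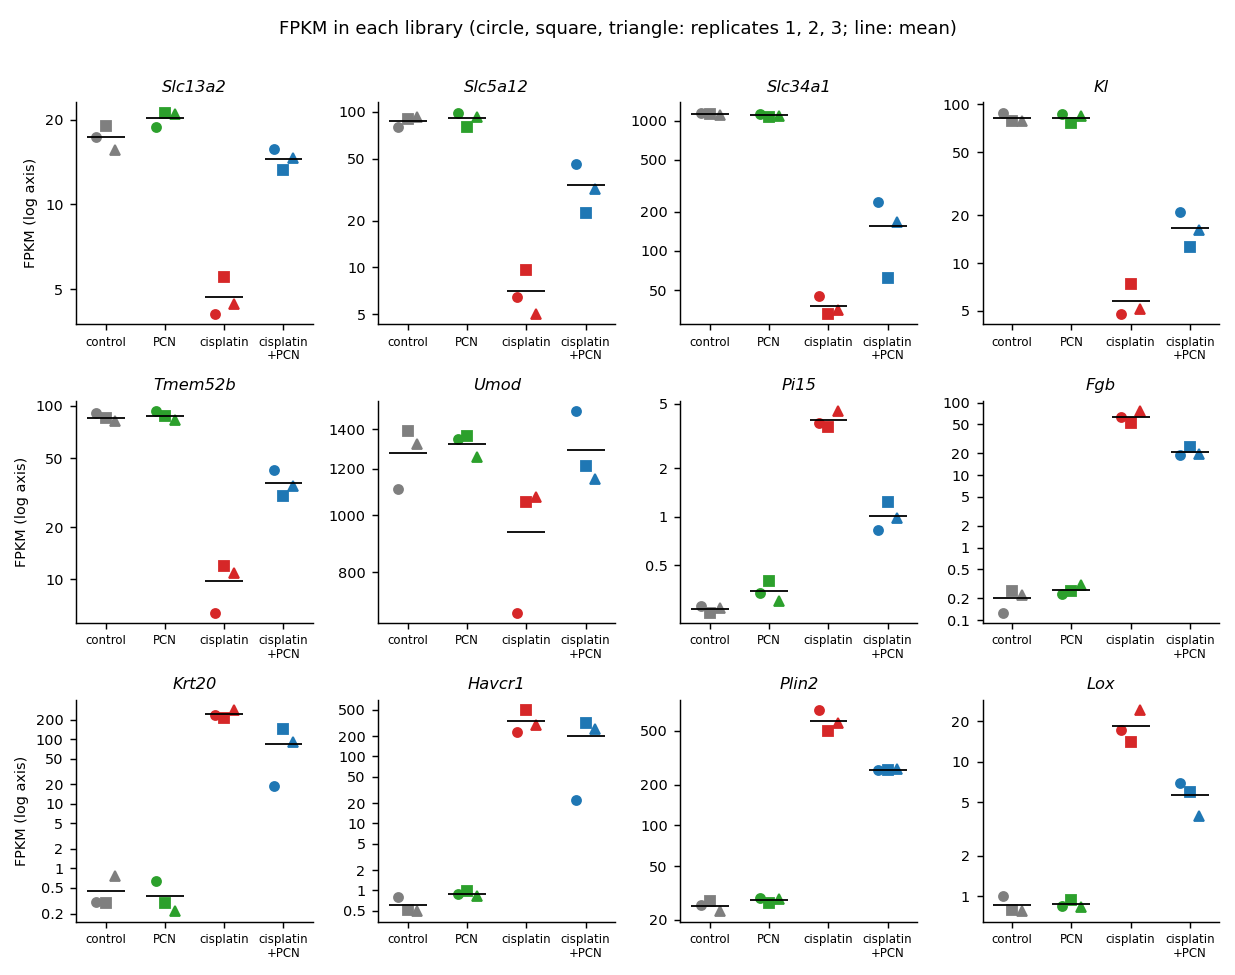
FPKM of 12 genes in every library, on a log axis, by group; points are libraries and short bars are group means. Slc13a2 reads 4.09 to 5.53 with cisplatin and 13.2 to 15.7 with cisplatin and PCN, and Pi15 3.59 to 4.50 and 0.828 to 1.23; Havcr1 overlaps between the groups.

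Promoters are shown for the gene called higher, which belongs to no list, for Slc34a1 as a proximal tubule transporter and for Fgb as the clotting gene nearest the threshold. Slc34a1 and Fgb stand for lists whose medians had opposite signs. Slc34a1 and Fgb were kept from 6 genes looked at, after their values and motifs were seen. Sequences are from RefSeq (GRCm38.p6), the 250 bases before a transcript start, 5′ to 3′ on the gene's strand; capitals mark a PXR half-site (AGTTCA), an AP-1 site (TGANTCA) or an HNF1 half-site (GTTAAT, or ATTAAC on the other strand). Positions count back from the start, with -1 as the base next to it. The Slc34a1 start is one that lies inside the gene as the deposited table gives it.
Slc13a2, chr11:78422235-78422484, minus strand: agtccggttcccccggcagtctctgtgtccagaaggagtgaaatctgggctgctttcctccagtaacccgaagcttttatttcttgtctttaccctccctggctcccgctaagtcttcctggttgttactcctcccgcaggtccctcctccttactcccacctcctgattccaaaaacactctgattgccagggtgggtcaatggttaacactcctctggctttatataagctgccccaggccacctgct
Slc34a1, chr13:55399398-55399647, plus strand: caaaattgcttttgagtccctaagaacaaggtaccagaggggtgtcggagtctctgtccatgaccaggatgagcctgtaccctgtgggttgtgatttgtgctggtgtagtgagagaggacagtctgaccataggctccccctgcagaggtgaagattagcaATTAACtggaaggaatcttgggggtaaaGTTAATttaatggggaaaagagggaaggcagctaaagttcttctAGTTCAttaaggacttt
Fgb, chr3:83049864-83050113, minus strand: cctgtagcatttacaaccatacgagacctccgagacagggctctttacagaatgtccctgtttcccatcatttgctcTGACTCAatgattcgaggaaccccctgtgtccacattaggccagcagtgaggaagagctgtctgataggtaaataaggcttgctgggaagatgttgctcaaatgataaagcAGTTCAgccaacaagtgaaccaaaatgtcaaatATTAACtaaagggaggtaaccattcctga
The Slc13a2 window held none of the motifs searched. The Slc34a1 window held HNF1 half-sites from -89 and from -61 and a PXR half-site from -17. The Fgb window held an AP-1 site from -173, a PXR half-site from -62 and an HNF1 half-site from -29.

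The same motifs were counted on both strands in windows of 300 bases, 250 before to 50 after the start, for the genes whose groups did not overlap; RefSeq promoters matched 9127 of the tested genes (11618 promoters), 1363 of the higher genes (1734 promoters) and 1383 of the lower genes (1776 promoters). The AP-1 site stood in 5.02% of promoters of higher genes, 7.04% of lower genes and 5.11% of all genes. The HNF1 half-site stood in 6.86%, 4.11% and 4.76%, in the same order, the reverse arrangement. The PXR half-site, in 11.3%, 9.07% and 9.81%, and an HNF4 core (CAAAG), in 49.1%, 45.2% and 46.3%, were somewhat more frequent before the higher genes. An NF-kB site stood in 1.56%, 2.25% and 1.70%, and the p53 half-site in 7.61%, 7.49% and 6.79%. These shares carry no test, AGTTCA and CAAAG can share letters, and a match is not evidence of binding.

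Many genes of the proximal tubule lay higher with PCN, at levels well short of control. Of the 40 listed genes of the first and second segments, all of which passed the minimum, 20 (50%) had non-overlapping higher libraries and none lower, 22 had an unadjusted p under 0.05, all higher, and the 12-library fit called 19 higher. Their median log2 difference was 0.72 beside -0.01 over all genes. Mean log2(FPKM + 1) of the list was 5.14, 4.96 and 4.84 with cisplatin, 6.12, 5.196 and 5.71 with cisplatin and PCN, and 6.96 to 6.97 in control, so no library of either cisplatin group reached control. Slc34a1, the main phosphate transporter of the segment (chr13:55398187-55415592, plus strand), read 45.3, 32.9 and 35.2 FPKM with cisplatin and 239, 62.1 and 166 with cisplatin and PCN. The groups did not overlap, with replicate 2 close to the cisplatin libraries (log2 difference 1.83 ± 0.46, adjusted p = 0.117), and control averaged 1128 FPKM. Slc5a12, a lactate transporter of the apical membrane (chr2:110597298-110647779, plus strand), had the widest difference of the list. Its libraries read 6.42, 9.68 and 5.03 against 46.3, 22.4 and 32.1 FPKM, again without overlap (2.09 ± 0.30, adjusted p = 0.0871). Kl, the co-receptor klotho for the phosphate hormone FGF23, read 4.79, 7.36 and 5.14 against 20.9, 12.7 and 16.2 FPKM, with control at 81.9 (1.37 ± 0.21, adjusted p = 0.0941).

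Endocytic receptors and a glucose transporter of these segments showed the same order of groups. Megalin (Lrp2), which retrieves filtered protein, read 14.5, 17.3 and 11.6 against 37.0, 23.3 and 31.8 FPKM (log2 difference 1.03 ± 0.20, adjusted p = 0.104). Its partner cubilin (Cubn) read 6.26, 7.57 and 5.30 against 20.0, 11.6 and 13.3 (adjusted p = 0.104), and neither gene's groups overlapped. Slc5a2, the glucose transporter SGLT2, read 24.0, 19.0 and 23.0 against 64.4, 24.7 and 45.9 FPKM (adjusted p = 0.167); it overlaps BC017158 on the opposite strand. In contrast the neutral amino acid transporter Slc6a19 read 36.2, 23.2 and 27.4 against 39.0, 18.4 and 19.3 FPKM, with overlapping groups (log2 difference -0.23 ± 0.30). Slc6a19os on its opposite strand averaged 5.31 FPKM with cisplatin and 1.95 with cisplatin and PCN. Of the 40 listed genes of these segments, 4 had a negative difference, down to -1.03. Cyp2e1, a cytochrome P450, read 80.1, 32.8 and 48.1 against 497, 51.8 and 96.8 FPKM. Replicate 1 stood far above the cisplatin libraries and replicate 2 among them (1.42 ± 0.79, adjusted p = 0.318).

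In the third segment, 29 of 30 listed genes passed the minimum, 12 (41.4%) lay higher without overlap and none lower, 14 had an unadjusted p under 0.05, the 12-library fit called 10, and the median was 0.45, or 0.28 without cisplatin+PCN replicate 1 and 0.70 without replicate 2. Slc7a13, an aspartate and glutamate transporter of that segment, read 5.34, 3.62 and 2.59 FPKM against 32.4, 6.40 and 12.8, with control at 496. The groups did not overlap, yet each cisplatin+PCN library held only a small part of the control level (log2 difference 1.67 ± 0.52, adjusted p = 0.141).

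Genes of the segments past the proximal tubule also lay higher. In the distal convoluted and connecting tubule, 16 of 17 genes passed, 11 (68.8%) lay higher without overlap and none lower, 11 had an unadjusted p under 0.05, the 12-library fit called 11, and the median was 0.62. The list's mean level was 4.00, 4.10 and 4.22 with cisplatin and 4.87, 4.66 and 4.67 with cisplatin and PCN, beside 5.29 to 5.46 in control. Tmem52b, a membrane protein gene of the distal nephron, read 6.44, 11.9 and 10.9 FPKM against 42.5, 30.4 and 34.4 (log2 difference 1.80 ± 0.23, adjusted p = 0.0871). Slc12a3, the thiazide-sensitive sodium chloride transporter, read 9.96, 6.95 and 9.98 against 22.8, 17.7 and 22.1 (1.14 ± 0.16, adjusted p = 0.0871). In both genes the 3 cisplatin+PCN libraries stayed together, clear of cisplatin and under control, which averaged 85.5 and 72.0 FPKM.

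Of the loop of Henle and thick ascending limb, 17 of 20 genes passed, 10 (58.8%) lay higher and 1 lower without overlap, 12 and 1 had an unadjusted p under 0.05, and the 12-library fit called 9 and 1, with a median of 0.48. Egf, the precursor of epidermal growth factor made by these cells, read 4.95, 6.21 and 8.35 FPKM against 33.2, 10.6 and 17.8, without overlap, beside 155 in control (log2 difference 1.40 ± 0.38, adjusted p = 0.121). Umod read 683, 1053 and 1075 against 1501, 1214 and 1152 FPKM (0.48 ± 0.21, adjusted p = 0.222). Its cisplatin+PCN libraries lay within or above the 1109 to 1387 of the control libraries. Kcnj1, the apical potassium channel, read 23.8, 37.3 and 18.4 against 45.7, 44.2 and 48.4 FPKM (adjusted p = 0.127). The single member that lay lower was the tight junction gene Cldn3, at 56.3, 44.5 and 53.9 against 29.5, 29.4 and 27.3 FPKM with control at 9.31 (-0.82 ± 0.11, adjusted p = 0.0871).

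The collecting duct list was mixed. Of 22 genes that passed out of 24, 9 (40.9%) lay higher and 3 (13.6%) lower without overlap, 10 and 3 had an unadjusted p under 0.05, the 12-library fit called 9 and 3, and the median was 0.21. Hsd11b2, the enzyme that shields the mineralocorticoid receptor from glucocorticoids, read 25.0, 35.5 and 23.1 FPKM against 58.5, 57.9 and 61.4 (log2 difference 1.09 ± 0.16, adjusted p = 0.0926). The ammonia channel Rhcg read 9.01, 13.4 and 11.3 against 23.4, 23.8 and 26.9 (adjusted p = 0.0871). Scnn1g, a subunit of the epithelial sodium channel, read 6.69, 8.34 and 8.42 against 16.0, 13.7 and 13.8, and control averaged 14.5. These 3 genes did not overlap between the groups, and Scnn1g with PCN stood at the control level. Krt8, a simple epithelial keratin, lay the other way at 213, 224 and 240 against 119, 173 and 132 FPKM (-0.69 ± 0.15, adjusted p = 0.107).

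Among glomerular genes, 6 (46.2%) of 13 podocyte genes that passed out of 15 lay higher and 1 lower without overlap, 5 and 1 had an unadjusted p under 0.05, the 12-library fit called 3 and 0, and the median was 0.17, or -0.05 among genes with a mean FPKM of at least 5. Nphs1 (nephrin), a protein of the slit diaphragm, read 2.87, 3.54 and 3.54 FPKM against 4.65, 3.99 and 4.10. Of 19 endothelial genes out of 20, 4 (21.1%) lay higher and none lower, with a median of 0.08, or -0.01 without cisplatin+PCN replicate 1. Of 10 smooth muscle and pericyte genes out of 12, 1 lay higher and 1 lower, with a median of 0.06, or -0.01 without cisplatin replicate 2 and 0.13 without cisplatin+PCN replicate 1. The summed FPKM of the endothelial list was 432 to 515 with cisplatin and 501 to 658 with cisplatin and PCN, and that of the podocyte list 200 to 211 and 201 to 213.

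**Figure D3:**
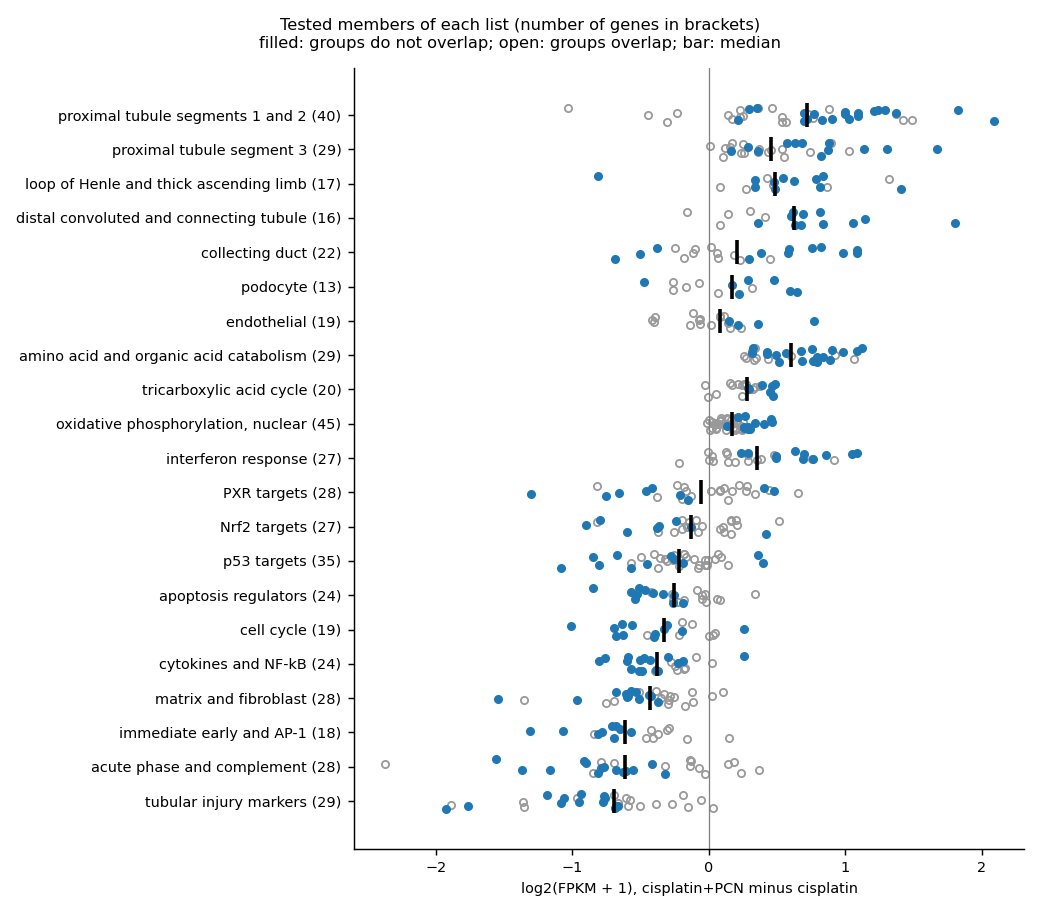
For 21 gene lists, each point is 1 tested member, placed by its log2 difference, cisplatin+PCN minus cisplatin, and the bar marks the list's median; filled points are genes whose groups do not overlap. Medians of the lists drawn run from 0.72 for segments 1 and 2 of the proximal tubule to -0.70 for tubular injury markers.

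Metabolic genes of the tubule lay higher too, with amino acid catabolism in front. All 29 tested genes of amino acid and organic acid catabolism (of 34 listed) had a positive difference, 19 (65.5%) without overlap; 21 had an unadjusted p under 0.05, the 12-library fit called 20, and the median was 0.60. The list's mean level was 4.44, 4.26 and 4.30 with cisplatin against 5.34, 4.57 and 4.97. Acmsd, which steers tryptophan breakdown away from NAD synthesis, read 1.41, 1.19 and 0.882 FPKM against 5.49, 2.16 and 3.98, with control at 44.0. Gldc, the glycine cleavage decarboxylase, stood above control in both groups, at 84.5, 116 and 107 against 274, 159 and 190 FPKM, with control at 46.1 (log2 difference 0.99 ± 0.22, adjusted p = 0.107). Neither gene overlapped between the groups.

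Part of the mitochondrial energy genes lay higher. Of the 45 nuclear genes of oxidative phosphorylation, 12 (26.7%) lay higher without overlap and none lower, 7 had an unadjusted p under 0.05, the 12-library fit called 5, and the median was 0.17; of 20 genes of the tricarboxylic acid cycle, 7 (35.0%) lay higher, 5 had an unadjusted p under 0.05, 4 were called there and the median was 0.28. Without cisplatin+PCN replicate 1 these medians were 0.07 and 0.14, and without replicate 2 they were 0.26 and 0.37. Sdha, the succinate dehydrogenase subunit that serves both, read 118, 113 and 116 FPKM against 200, 133 and 155, beside 253 in control (adjusted p = 0.155). Ppargc1a, the coactivator PGC-1α of mitochondrial biogenesis, read 5.67, 6.38 and 6.51 against 9.10, 8.95 and 8.22 (log2 difference 0.44 ± 0.09, adjusted p = 0.104) and did not overlap. The list of mitochondrial biogenesis and dynamics moved little. Of its 19 tested genes (20 listed), 6 (31.6%) lay higher and 1 lower without overlap, and 13 differences were positive and 6 negative. Its median was 0.06, or 0.008 with array weights. Only 1 of the 13 mitochondrially encoded genes lay higher without overlap, though 11 had a positive difference and the median was 0.22. Without cisplatin+PCN replicate 1 that median was 0.04, and without replicate 2 it was 0.36.

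In the list for fatty acid oxidation and its regulator PPAR alpha, 7 (22.6%) of 31 tested genes (32 listed) lay higher and 1 lower, with a median of 0.24, which was -0.00 without cisplatin+PCN replicate 1, 0.39 without replicate 2 and 0.11 without cisplatin replicate 2. The list's mean level was 6.71, 6.34 and 6.57 with cisplatin and 7.11, 6.41 and 6.56 with cisplatin and PCN. Both groups stood above the 5.53 to 5.68 of control. Acadm, the medium-chain acyl-CoA dehydrogenase, read 125, 100 and 116 FPKM against 293, 148 and 167. Pdk4, which blocks pyruvate entry to the cycle and is induced in fasting, read 361, 186 and 636 against 257, 116 and 125 and overlapped. Of 28 peroxisomal genes (30 listed), 9 (32.1%) lay higher, with a median of 0.16 (0.06 without cisplatin+PCN replicate 1, 0.33 without replicate 2 and 0.25 without cisplatin replicate 1), among them Acox2, of bile acid side chain oxidation, at 12.9, 12.7 and 8.94 against 31.5, 21.4 and 21.7 FPKM. Hacl1, which splits 2-hydroxy acids, read 13.0, 12.2 and 12.3 against 83.2, 25.7 and 31.4, above the 9.89 of control in both groups; it overlaps Btd on the opposite strand. The lipid droplet coat gene Plin2 lay in the opposite direction. It read 713, 502 and 573 FPKM with cisplatin and 258, 256 and 262 with cisplatin and PCN, with control at 25.4 (-1.18 ± 0.14, adjusted p = 0.0845), and its cisplatin+PCN libraries were nearly equal.

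Sugar and sterol pathways were mixed. Of 18 glycolytic genes (20 listed), 2 lay higher and 4 (22.2%) lower without overlap, with a median of -0.04 (-0.02 without cisplatin replicate 1 and -0.08 without replicate 3); Hk2, a hexokinase, read 1.75, 2.27 and 2.26 FPKM against 0.380, 1.36 and 0.781. Of 12 gluconeogenic genes (13 listed), 2 lay higher and none lower, with a median of 0.30, or 0.12 without cisplatin+PCN replicate 1 and 0.20 without cisplatin replicate 2. Pck1, the enzyme that commits carbon to glucose, read 1117, 901 and 1334 against 2278, 1551 and 1618 FPKM, beside 896 in control (0.70 ± 0.21, adjusted p = 0.135). Of 23 genes of cholesterol synthesis (24 listed), 8 (34.8%) lay higher and 1 lower, with a median of 0.15, or 0.26 without cisplatin replicate 2. Hmgcs1, which makes the pathway's first committed precursor, read 23.6, 29.0 and 20.3 against 55.8, 37.2 and 42.7 FPKM (adjusted p = 0.107).

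Injury markers of the tubule lay lower with PCN, and lowest in cisplatin+PCN replicate 1. Of 29 tested genes (30 listed), 13 (44.8%) lay lower without overlap and none higher, 17 had an unadjusted p under 0.05, all lower, the 12-library fit called 15 lower, and the median was -0.70. The list's mean level was 5.87, 6.16 and 6.10 with cisplatin and 4.57, 5.72 and 5.41 with cisplatin and PCN, while control stood at 2.87 to 3.05. Without cisplatin+PCN replicate 1 the median was -0.50. Havcr1 read 232, 493 and 297 FPKM with cisplatin and 22.8, 321 and 262 with cisplatin and PCN, against 0.602 in control. Replicate 1 stood apart, and the other two cisplatin+PCN libraries lay within the cisplatin range (log2 difference -1.36 ± 0.95, adjusted p = 0.414). Lcn2 read 653, 673 and 826 against 384, 696 and 384 FPKM (-0.61 ± 0.25, adjusted p = 0.206), and replicate 2 overlapped the cisplatin group. Krt20, a keratin made by injured tubule, did not overlap, at 234, 216 and 281 against 18.8, 143 and 90.2 (-1.93 ± 0.67, adjusted p = 0.164). The small proline-rich gene Sprr2f read 24.3, 24.2 and 15.5 against 1.83, 10.9 and 7.01 FPKM (adjusted p = 0.130), and members of its family may share reads. Sox9, the transcription factor of regenerating tubule, read 8.62, 8.83 and 7.06 against 1.78, 3.91 and 4.85 (-1.08 ± 0.27, adjusted p = 0.117). Of 12 genes of a maladaptive proximal tubule state (16 listed), 2 lay higher and 3 lower, with a median of -0.00, which ran from -0.09 without cisplatin+PCN replicate 2 to 0.12 without replicate 1.

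**Figure D4:**
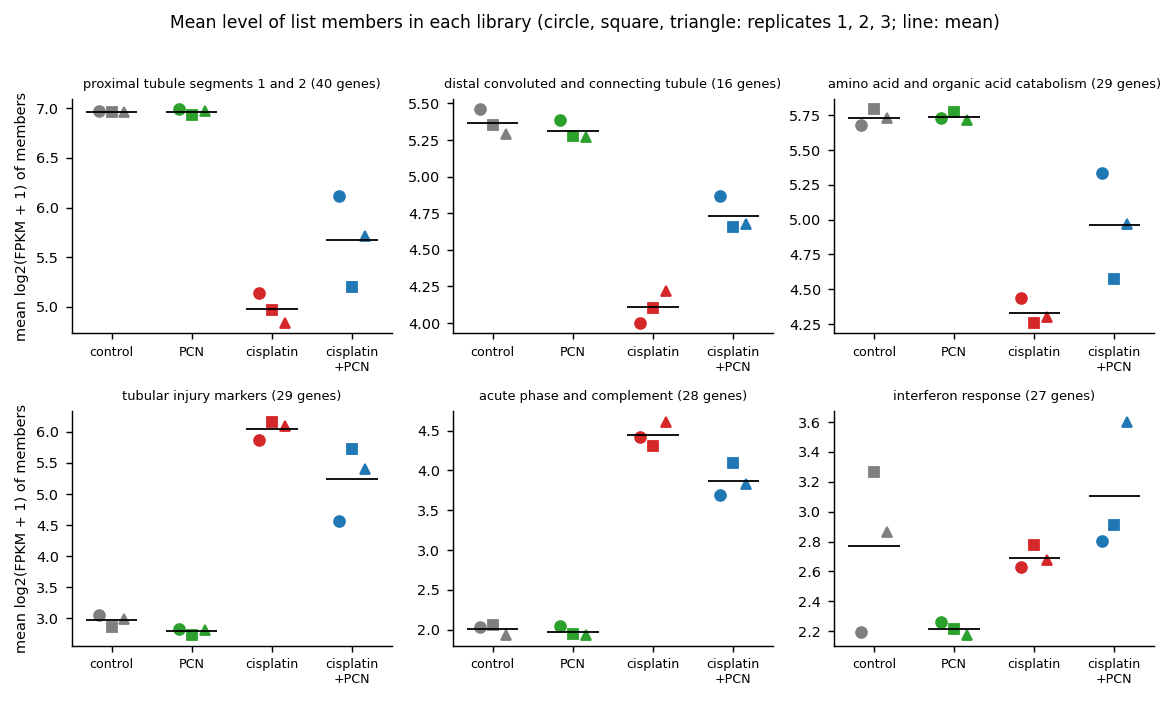
Mean log2(FPKM + 1) of 6 gene lists in every library, by group. For injury markers the cisplatin libraries sit at 5.87 to 6.16 and the cisplatin+PCN libraries at 4.57 to 5.72; for proximal tubule segments 1 and 2 they sit at 4.84 to 5.14 and 5.196 to 6.12.

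Targets of p53 tended to be lower, with 29 negative and 6 positive differences. Of 35 tested p53 targets (36 listed), 2 lay higher and 9 (25.7%) lower without overlap, 2 and 7 had an unadjusted p under 0.05, the 12-library fit called 2 and 5, and the median was -0.22, or -0.11 without cisplatin+PCN replicate 1 and -0.33 without replicate 2. Cdkn1a, the p21 inhibitor of the cell cycle, read 297, 306 and 343 FPKM with cisplatin and 177, 283 and 241 with cisplatin and PCN, while control averaged 2.12 (log2 difference -0.46 ± 0.18, adjusted p = 0.196). Bax, which opens the mitochondrial membrane in apoptosis, read 58.0, 61.1 and 59.4 against 45.7, 55.8 and 55.1 (-0.19 ± 0.10, adjusted p = 0.311). Bbc3, which encodes the apoptosis inducer PUMA, read 11.4, 8.32 and 11.0 against 10.1, 9.17 and 10.6, with a difference of -0.03 ± 0.13 and an interval from -0.33 to 0.28. Gdf15, a stress cytokine, read 169, 207 and 162 against 78.8, 187 and 117 and overlapped. Wider differences came from Btg2, an antiproliferative gene, at 180, 160 and 261 against 73.8, 136 and 77.1 FPKM, and Perp, a membrane protein of p53-dependent death, at 113, 100 and 115 against 59.1, 76.3 and 69.4 (-0.67 ± 0.12, adjusted p = 0.104).

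Of 19 cell cycle genes that passed out of 35, 1 lay higher and 11 (57.9%) lower without overlap, 11 had an unadjusted p under 0.05 in the lower direction, the 12-library fit called 9 lower, and the median was -0.33. Rrm2, a subunit of the reductase that supplies deoxynucleotides, read 5.66, 8.45 and 9.81 FPKM against 1.996, 5.15 and 3.51, beside 1.53 in control. Cdc20, an activator of mitotic exit, read 2.47, 2.32 and 2.81 against 0.767, 1.75 and 1.12, and it overlaps Elovl1 on the opposite strand. Both were lower without overlap, and for genes this near the minimum a member that passed only through the cisplatin libraries had to differ. Of 22 DNA repair genes (30 listed), 2 lay higher and 3 lower, with a median of 0.03, which ran from -0.01 without cisplatin+PCN replicate 1 to 0.06 without cisplatin replicate 2 and was -0.19 among genes with a mean FPKM of at least 5.

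Apoptosis regulators lay lower. Of 24 apoptosis regulators (26 listed), none lay higher and 11 (45.8%) lower, with a median of -0.26 and 8 calls in the 12-library fit, and of 14 genes of necroptosis, pyroptosis and ferroptosis (21 listed), none lay higher and 3 (21.4%) lower, with a median of -0.12. The share of the latter is near the 15.4% of all genes, and its median was -0.03 without cisplatin+PCN replicate 1, and leaving out cisplatin replicate 2 or 1 gave -0.04 or -0.07. Ripk3, the kinase that starts necroptosis, read 1.96, 2.36 and 2.26 FPKM against 0.628, 1.72 and 1.29 (log2 difference -0.56 ± 0.19, adjusted p = 0.159). Mlkl, its effector, read 3.86, 5.94 and 4.03 against 1.61, 4.18 and 3.74 and overlapped.

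Cytokine and NF-kB genes lay lower. Of 24 tested genes (33 listed), 15 (62.5%) lay lower and 1 higher without overlap, 13 had an unadjusted p under 0.05, the 12-library fit called 12 lower, and the median was -0.38. With no expression minimum that median was -0.24. Nfkbia, the inhibitor that NF-kB itself induces, read 70.5, 62.8 and 80.7 FPKM against 50.4, 49.3 and 43.1 (log2 difference -0.57 ± 0.12, adjusted p = 0.107). Il34, a tubule-made ligand of the macrophage growth factor receptor, read 72.7, 53.4 and 61.0 against 37.2, 34.6 and 36.6 (-0.76 ± 0.12, adjusted p = 0.104); Gm15895 lies on its opposite strand. In both genes the 3 cisplatin+PCN libraries stood close together under every cisplatin library. Tnf and Il6 did not pass the minimum: Tnf read 0.179 to 0.190 FPKM with cisplatin and 0.218 to 0.241 with cisplatin and PCN, and Il6 0.121 to 0.193 and 0.0328 to 0.146. Of 16 chemokines (24 listed), 1 lay higher and 1 lower, with a median of -0.19, or -0.04 without cisplatin+PCN replicate 1 and -0.12 without cisplatin replicate 2. Ccl2, which draws monocytes, read 3.42, 2.40 and 1.84 against 0.524, 2.14 and 1.84 FPKM (-0.55 ± 0.30, adjusted p = 0.305), and Cxcl1, which draws neutrophils, read 22.6, 25.0 and 21.6 against 5.71, 22.1 and 10.01 (-1.01 ± 0.40, adjusted p = 0.200). Both overlapped. Cxcl12, the higher member, read 16.5, 13.4 and 11.6 against 22.7, 20.0 and 20.5, beside 31.8 in control.

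Acute phase and clotting genes lay lower. Of 28 tested genes (30 listed), 14 (50%) lay lower and none higher without overlap, 16 had an unadjusted p under 0.05, the 12-library fit called 11 lower, and the median was -0.62. Fgb, the beta chain of fibrinogen (chr3:83040141-83049863, minus strand), read 62.6, 52.7 and 75.6 FPKM with cisplatin and 19.0, 24.4 and 19.2 with cisplatin and PCN, against 0.201 in control. Its groups stood far apart, with a mean of 63.6 ± 11.5 against 20.8 ± 3.05 (SD, n = 3 each), 3.05-fold lower, and a log2 difference of -1.56 ± 0.16. The gamma chain Fgg read 543, 344 and 643 against 295, 275 and 227 (-0.90 ± 0.24, adjusted p = 0.120). The alpha chain Fga read 562, 349 and 558 against 364, 264 and 268 and overlapped by 1 library. The summed FPKM of the 15 liver markers, Fgb among them, was 174 to 230 with cisplatin and 157 to 179 with cisplatin and PCN, with Apoc3, an apolipoprotein, as the largest member. Of the liver-defining genes, albumin (Alb) read 0.423 to 0.647 FPKM with cisplatin and 0.624 to 1.61 with cisplatin and PCN, and Cyp2c29 was at 0 in all 6 libraries. The protease inhibitor Serpina3n read 34.1, 39.9 and 52.3 against 10.9, 25.4 and 13.2 (-1.37 ± 0.31, adjusted p = 0.107), and Lrg1, an acute phase glycoprotein, 252, 132 and 198 against 98.6, 111 and 87.7 (adjusted p = 0.118). Complement C3 read 249, 243 and 249 against 167, 245 and 281 (-0.13 ± 0.19, adjusted p = 0.698).

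Immediate early and stress transcription factors lay lower. Of 18 genes of the AP-1 list (20 listed), 9 (50%) lay lower and none higher, 11 had an unadjusted p under 0.05, the 12-library fit called 8 lower, and the median was -0.61. Fosl1, an AP-1 subunit, read 14.0, 18.9 and 17.3 FPKM against 2.24, 11.6 and 7.87 (log2 difference -1.31 ± 0.46, adjusted p = 0.167). Klf6, an injury-induced zinc finger factor, read 84.2, 56.4 and 103 against 31.9, 43.5 and 36.8 (-1.07 ± 0.23, adjusted p = 0.107). Both lay lower without overlap, while Fos itself read 4.02, 5.19 and 6.71 against 4.84, 9.54 and 4.30 and Jun 60.0, 42.1 and 68.1 against 42.4, 46.8 and 36.3, each with overlap. Of 21 genes of the EGF family and growth factor signals (27 listed), 2 lay higher and 5 (23.8%) lower, with a median of -0.02 (-0.07 without cisplatin replicate 1 and 0.05 without cisplatin+PCN replicate 1): Egf was among the higher members, and Areg, an EGF receptor ligand, read 4.19, 4.81 and 6.86 against 0.360, 3.01 and 1.59. Of 17 heat shock genes, 2 lay higher and 3 lower, with a median of 0.00 (-0.04 without cisplatin+PCN replicate 2 and 0.03 without replicate 1); the small chaperone Hspb1 read 161, 146 and 259 against 62.4, 98.5 and 79.4. Of 21 genes of the integrated stress response (25 listed), 1 lay higher and 4 (19.0%) lower, with a median of -0.16, or -0.27 without cisplatin replicate 1. Of 20 endoplasmic reticulum chaperones 3 lay higher and 1 lower, with a median of 0.05, which ran from 0.02 without cisplatin+PCN replicate 2 to 0.10 without cisplatin replicate 2. Of 16 glucocorticoid-responsive genes, 5 (31.2%) lay lower and none higher, with a median of -0.39 (-0.23 without cisplatin replicate 3 and -0.62 without replicate 2), and Fkbp5, the receptor's feedback chaperone, read 104, 89.0 and 109 against 86.4, 88.9 and 76.3.

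Matrix genes stood lower. Of 28 tested genes (35 listed), 12 (42.9%) lay lower and none higher without overlap, 13 had an unadjusted p under 0.05, the 12-library fit called 9 lower, and the median was -0.43, or -0.29 without cisplatin+PCN replicate 1. Lox, which crosslinks collagen and elastin, read 17.2, 14.0 and 24.1 FPKM against 6.95, 5.99 and 3.92, with control at 0.859. Its cisplatin+PCN libraries were all far under cisplatin (log2 difference -1.55 ± 0.24, adjusted p = 0.1005). Col4a1, of basement membrane, read 93.8, 87.0 and 88.0 against 48.0, 68.4 and 60.3 (-0.61 ± 0.14, adjusted p = 0.107), and Tgfb1, which drives fibrosis, 5.92, 5.99 and 5.21 against 2.51, 4.68 and 4.18. The fibroblast collagen gene Col1a1 read 6.89, 11.1 and 6.15 against 1.67, 6.58 and 6.05 and overlapped, as did Timp1, an inhibitor of matrix proteases, at 14.2, 30.0 and 21.8 against 2.96, 14.7 and 9.25.

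Lymphocyte markers and the granulocyte genes Ly6g and Mpo were low in all 6 libraries. The 5 tested neutrophil markers averaged above control, and macrophage markers were measured in both groups. The part of these cells in the cytokine, acute phase and matrix differences was not tested. Of 17 neutrophil markers, 5 passed the minimum and none had non-overlapping groups, and 3 had an unadjusted p under 0.05, all lower. The median was -1.004, which ran from -1.38 to -0.46 as single libraries were left out, the latter without cisplatin+PCN replicate 3. With no expression minimum the list's median was only -0.23, so its size depended on the 5 markers that passed. The mean log2(FPKM + 1) of these 5 was 4.03, 4.00 and 4.61 with cisplatin and 3.12, 4.16 and 2.63 with cisplatin and PCN. Control libraries stood at 0.693 to 0.897. The list's summed FPKM was 680 to 871 with cisplatin and 391 to 729 with cisplatin and PCN, beside 4.22 to 5.91 in control. Lcn2, which injured tubule also makes, carried most of the sum in the 6 libraries. S100a8, an abundant neutrophil protein, read 7.11, 8.30 and 11.4 FPKM against 3.10, 8.66 and 1.94, with replicate 2 inside the cisplatin range. Of the granulocyte genes that did not pass, Ly6g read 0.0460 to 0.165 with cisplatin and 0 to 0.167 with cisplatin and PCN, and Mpo was at 0 in every one of the 6. Of 14 macrophage markers (22 listed), 3 (21.4%) lay higher and 3 (21.4%) lower, with a median of -0.04, which ran from -0.22 without cisplatin+PCN replicate 3 to 0.18 without replicate 1, and the summed FPKM was 250 to 298 with cisplatin and 186 to 259 with cisplatin and PCN. Cd68, a lysosomal protein of macrophages, read 15.4, 16.6 and 17.8 against 5.001, 15.6 and 8.17 FPKM and overlapped. It does not stand for the list, in which 6 differences were positive, up to 0.59, and 8 negative. Of 20 lymphocyte markers only Igkc, the kappa light chain, passed, at 1.86, 1.55 and 1.72 against 2.47, 3.10 and 2.75 FPKM, below the 6.60 of control in both groups.

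Interferon-response genes were the immune set that stood higher with PCN. Of 27 tested genes (28 listed), 11 (40.7%) lay higher and none lower without overlap, 7 had an unadjusted p under 0.05, all higher, none was called in the 12-library fit, and the median was 0.35. The list's mean level was 2.63, 2.78 and 2.67 with cisplatin and 2.80, 2.91 and 3.60 with cisplatin and PCN, but control libraries alone ran from 2.19 to 3.26. Irf7, the transcription factor that amplifies type I interferon, read 15.4, 16.8 and 13.7 FPKM against 26.9, 27.8 and 50.1 (log2 difference 1.09 ± 0.24, adjusted p = 0.107). Ifit3, an antiviral RNA-binding partner, read 15.9, 16.7 and 16.7 against 29.6, 22.3 and 64.3 (1.05 ± 0.35, adjusted p = 0.155). Replicate 3 was the highest library in both genes, and the cisplatin+PCN values of Ifit3 lay partly within the 16.8, 46.8 and 35.2 of the control libraries. Without replicate 3 the list's median was 0.14.

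Genes known as PXR targets in liver showed no common direction. Of 47 listed genes 28 passed the minimum, 2 (7.14%) lay higher and 7 (25.0%) lower without overlap, 2 and 5 had an unadjusted p under 0.05, the 12-library fit called 1 and 3, and the median was -0.06, which ran from -0.15 without cisplatin replicate 2 to 0.08 among genes with a mean FPKM of at least 5. The receptor gene Nr1i2 read 6.51, 4.83 and 4.47 FPKM with cisplatin and 4.89, 4.68 and 4.46 with cisplatin and PCN, beside 2.495 in control. The groups overlapped, and the log2 difference was -0.13 ± 0.13 with an interval from -0.44 to 0.18 (adjusted p = 0.562). The classic liver target Cyp3a11 did not pass, at 0.00721 to 0.0595 FPKM with cisplatin and 0 to 0.0155 with cisplatin and PCN. Of the cytochromes that did, Cyp3a13 read 2.48, 1.44 and 2.28 against 1.41, 1.38 and 1.03 (-0.42 ± 0.16, adjusted p = 0.184), and Cyp2b10 read 2.02, 1.80 and 2.59 against 1.26, 1.13 and 0.318 (-0.75 ± 0.22, adjusted p = 0.133). Both lay lower without overlap, near the minimum and above control, which averaged 0.188 and 0.125.

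The drug efflux pumps of the list lay lower by small amounts. Abcb1a, one of the mouse P-glycoprotein genes, read 3.91, 2.39 and 2.42 FPKM against 1.58, 1.71 and 2.11 (log2 difference -0.46 ± 0.17, adjusted p = 0.172), and Abcb1b, the other, 13.1, 13.0 and 12.7 against 10.3, 12.4 and 11.9 (-0.15 ± 0.09, adjusted p = 0.338). Abcc3, a basolateral conjugate pump, read 5.92, 5.37 and 4.40 against 1.78, 4.15 and 3.21 (-0.66 ± 0.23, adjusted p = 0.163). All 3 pumps lay lower without overlap. Gsta1, a glutathione transferase whose family may share reads, read 52.2, 54.1 and 36.5 against 9.32, 43.6 and 42.7 and overlapped, with replicate 1 apart. Sult1e1, an estrogen sulfotransferase, read 4.81, 1.05 and 2.60 against 0.192, 0.443 and 0.668 and passed only through the cisplatin libraries. The 2 higher members were Ugt1a1, a glucuronosyltransferase, at 0.981, 1.46 and 0.908 against 1.68, 1.93 and 1.76, and Thrsp, a lipogenic gene, at 1.42, 1.36 and 1.12 against 2.36, 2.03 and 2.24. Ugt1a1 overlaps 4 other Ugt1a genes on the same strand and may share reads with them. Their means with cisplatin and with cisplatin and PCN were 68.1 and 67.7 FPKM for Ugt1a7c and 42.7 and 48.9 for Ugt1a10. Ugt1a2 averaged 6.88 and 14.6, and Ugt1a9 1.18 and 0.890.

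**Figure D5:**
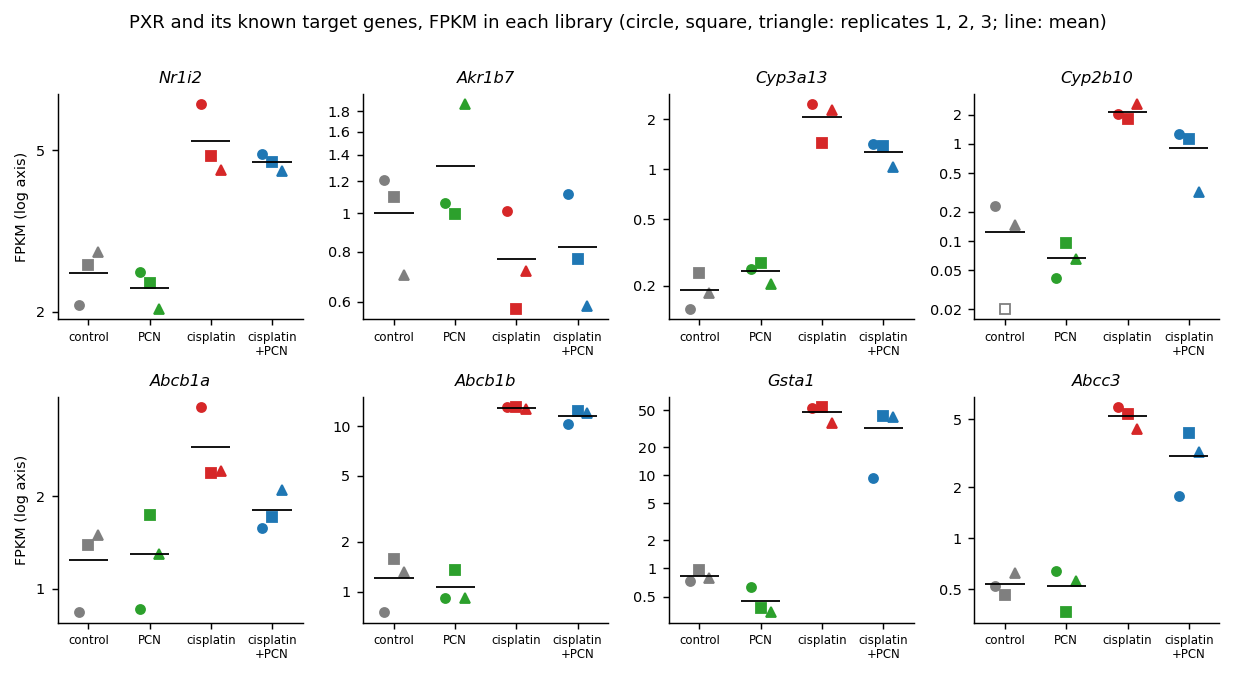
FPKM of Nr1i2 and 7 genes of the PXR target list in every library, on a log axis, by group; values under 0.02, such as control replicate 2 of Cyp2b10, which is listed at 0, are drawn as open points at 0.02. Nr1i2 overlaps between the cisplatin groups at 4.46 to 6.51 FPKM, and Cyp3a13, Cyp2b10 and Abcc3 lie lower with PCN.

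Among aldo-keto reductases, which reduce reactive aldehydes and steroids, 13 of 16 listed genes passed, 5 (38.5%) lay higher and 1 lower without overlap, 7 and 1 had an unadjusted p under 0.05, the 12-library fit called 5 and 0, and the median was 0.36. Akr1b7 itself, a PXR target of liver, did not pass, at 1.01, 0.575 and 0.716 FPKM with cisplatin and 1.12, 0.767 and 0.586 with cisplatin and PCN. These overlapped each other and the 0.698 to 1.21 of the control libraries. Akr1c21, the major aldo-keto reductase of mouse proximal tubule, read 58.6, 40.8 and 46.1 against 169, 65.1 and 149, beside 917 in control (log2 difference 1.28 ± 0.35, adjusted p = 0.125). The lower member was Akr1b8, at 29.5, 39.5 and 38.8 against 8.63, 28.1 and 21.9 FPKM. Near-identical Akr1c genes may share reads.

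For the entry and exit of cisplatin, 16 of 19 listed genes of platinum and organic cation transport passed, 3 (18.8%) lay higher and 3 (18.8%) lower without overlap, the 12-library fit called 3 and 0, and the median was 0.08, or -0.02 without cisplatin replicate 3 and 0.04 without cisplatin+PCN replicate 1. Slc22a2, the basolateral uptake transporter OCT2, read 43.7, 36.9 and 36.7 FPKM against 83.2, 51.3 and 68.4, beside 138 in control. The groups did not overlap and all 6 libraries stood under control (log2 difference 0.75 ± 0.18, adjusted p = 0.116). Slc31a1, the copper transporter CTR1, read 30.4, 30.2 and 27.4 against 39.9, 32.2 and 34.9 (0.27 ± 0.11, adjusted p = 0.195), with Cdc26 on its opposite strand. The apical efflux transporter Slc47a1 (MATE1) read 69.4, 59.0 and 44.3 against 65.1, 53.3 and 67.0 and overlapped (0.12 ± 0.18, interval -0.31 to 0.54).

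Oxidant and metal defence divided. Of 27 tested Nrf2 targets (30 listed), 1 lay higher and 7 (25.9%) lower, 2 and 5 had an unadjusted p under 0.05, the 12-library fit called 0 and 5, and the median was -0.13. Hmox1, heme oxygenase 1, read 89.3, 128 and 79.8 FPKM against 34.4, 64.3 and 61.3 (log2 difference -0.90 ± 0.28, adjusted p = 0.140), and Srxn1, sulfiredoxin, 255, 330 and 186 against 97.1, 174 and 176 (adjusted p = 0.176). Both were lower without overlap, while Nqo1, a quinone reductase that is a reference Nrf2 target, read 217, 212 and 139 against 207, 178 and 217 (0.10 ± 0.19, interval -0.34 to 0.55). Of 19 antioxidant enzymes (20 listed), 2 lay higher and 2 lower, with a median of 0.15, or 0.04 without cisplatin+PCN replicate 1 and 0.27 without replicate 2. Sod2, the mitochondrial superoxide dismutase, read 49.96, 46.9 and 52.4 against 67.5, 50.8 and 57.8 FPKM, beside 104 in control, and overlapped by replicate 2 (0.22 ± 0.12, adjusted p = 0.308). Of 10 metallothionein and zinc genes (12 listed), 1 lay higher and 5 (50%) lower, with a median of -0.28, or -0.09 without cisplatin replicate 2 and -0.10 without replicate 1. Mt1, a metal-binding protein, read 1525, 1353 and 1799 against 603, 1087 and 893, beside 77.5 in control (-0.89 ± 0.23, adjusted p = 0.119).

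Among regulators, 5 (17.2%) of 29 tested nuclear receptors (35 listed) lay higher and 1 lower without overlap, with a median of 0.02, and 4 (17.4%) each way of 23 transcription factors of mature tubule (24 listed), with a median of 0.11. Both shares are near those of all genes, and without cisplatin+PCN replicate 1 the medians were -0.02 and -0.05, against 0.07 and 0.18 without replicate 3. Esrra, a receptor that works with PGC-1α, read 25.2, 34.4 and 22.9 FPKM against 38.3, 39.0 and 46.3, beside 88.8 in control; Trmt112 lies on its opposite strand. Emx1, a homeobox gene of the tubule, read 4.23, 4.26 and 2.99 against 10.7, 7.12 and 9.42 (log2 difference 1.06 ± 0.17, adjusted p = 0.104). Both lay higher without overlap. Hnf4a, the master factor of proximal tubule identity, read 115, 93.1 and 104 against 214, 87.5 and 127 and overlapped (0.36 ± 0.30, adjusted p = 0.486). Hnf4aos on its opposite strand averaged 2.77 FPKM with cisplatin and 8.19 with cisplatin and PCN. Of 16 clock genes (18 listed), 1 lay higher and 1 lower, with a median of -0.10 (-0.21 without cisplatin replicate 2 and 0.00 without replicate 3), and the higher was Hlf, at 3.48, 3.49 and 2.24 against 7.59, 5.77 and 6.86 FPKM.

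Markers of fat and other tissues varied between libraries. Of 9 adipocyte markers (12 listed), none lay higher and 2 (22.2%) lower without overlap, with a median of -0.43 (-0.79 without cisplatin+PCN replicate 1) and a summed FPKM of 168 to 337 with cisplatin and 124 to 270 with cisplatin and PCN, beside 146 to 277 in control. Fabp4, a fatty acid carrier, read 26.4, 20.2 and 39.3 against 15.9, 14.7 and 10.7, and Cidec, a droplet fusion protein, 14.5, 9.33 and 16.8 against 5.92, 7.56 and 5.45. The fat-defining hormone gene Adipoq read 1.84, 1.66 and 2.42 against 2.25, 1.37 and 0.715 FPKM and overlapped; the part of fat in the Plin2 difference was not tested. Of 8 tested liver markers (15 listed), none lay higher and Fgb alone lay lower, with a median of -0.01 (-0.11 without cisplatin replicate 2 and 0.06 without replicate 3), and none of 11 adrenal cortex genes passed the minimum. Of 10 erythroid genes 3 passed and 2 lay higher, among them Slc4a1, the anion exchanger shared with the intercalated cells of the collecting duct, at 1.01, 1.43 and 1.04 against 2.67, 3.26 and 3.92 FPKM, while the globin gene Hbb-bs read 0 to 3.45 with cisplatin and 0 to 0.257 with cisplatin and PCN.

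At the expression minimum, the genes just inside were Gapdhs, with a third-highest library of 1.0003 FPKM, Lmntd2 at 1.0004 and Gm11613 at 1.001, and the genes just outside were Atp2c2 at 0.9995, Gm31728 at 0.9991 and Gm13092 at 0.9989.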

How the data were processed

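Kidney RNA of 12 mouse libraries had been sequenced, and the authors deposited 1 table of FPKM (fragments per kilobase of gene, scaled to mapped fragments) per gene and library. The submitters' processing notes name HISAT2 2.0.5, featureCounts 1.5.0-p3, DESeq2 1.16.1, edgeR 3.18.1 and build mm8; their order and the strandedness are not given in the sources used, so antisense and overlapping genes cannot be told apart. Of 52636 gene identifiers 52489 are in GENCODE M21, 95.2% of them with the same start and end, so coordinates are read as GRCm38. FPKM times gene length stepped in whole reads for 100% of values (tolerance 0.001), which gave the read numbers.

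Genes that reached 1 FPKM in 3 or more of the 6 libraries were tested with limma 3.58.1 (R 4.3.3, intensity trend) on log2(FPKM + 1), a scale that understates changes of low genes, two-sided, with Benjamini-Hochberg adjustment over all 12689 genes and a threshold of 0.05; SE and 95% intervals come from that fit. The script was tested on simulated data. With 3 libraries a side, no exact permutation test of 1 gene can go below 0.10, the smallest p it allows. Genes named are a panel of 31, the called genes, and list members or genes said to be picked after their values were seen; some list members are not reported here by name. Members and lists were chosen with earlier results of these data known. Motif shares had been planned for called genes; with 3 calls they were taken over genes whose groups did not overlap. Alternatives changed the pseudocount, expression minimum, scaling, libraries fitted, weights, replicate block and count model, and left out each library.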

Additional observations from a re-analysis of the deposited data

Results flagged for a closer look

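For 7 of the genes named, all 3 cisplatin+PCN libraries lay to one side of all 3 cisplatin libraries while all 3 PCN libraries lay to the opposite side of all 3 control libraries. Only the 110 genes named with a test were searched, and many of them had been picked by their difference between the cisplatin groups. The share of all tested genes with this pattern was not counted, so the 7 cannot be set against a background. The difference between the 2 contrasts was not tested. Pi15 stood at -1.30 on the log2 scale with cisplatin (cisplatin+PCN minus cisplatin) and at 0.08 without it (PCN minus control), and both groups without cisplatin averaged under 1 FPKM, at 0.268 and 0.344. The claudin gene Cldn3 gave -0.82 and 0.26. Positive values with cisplatin and small negative ones without it came from the aldo-keto reductase gene Akr1c21 (1.28 and -0.09), the estrogen-related receptor gene Esrra (0.58 and -0.07) and the anion exchanger gene Slc4a1 (0.98 and -0.15). The interferon-response genes had the widest gaps: Ifit3 gave 1.05 with cisplatin and -1.01 without it, and Bst2, an antiviral membrane protein, 0.76 and -0.91. Control libraries of these genes ranged from 16.8 to 46.8 FPKM for Ifit3 and from 32.4 to 86.4 for Bst2.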

How the results depend on the processing

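The count of called genes depended on the setting. Against 1 gene higher and 2 lower, the limma test gave 1 and 1 at pseudocounts of 0.1 and 0.5, 0 and 0 with no expression minimum, 1 and 0 at a mean FPKM of at least 5, 0 and 1 with the minimum set over all 12 libraries, 1 and 1 when rescaling set aside the 50 highest genes and those of mitochondrial DNA, and the same 1 and 2 after median-of-ratios or quantile scaling. It gave 1062 and 1062 with all 12 libraries in the fit, 2272 and 2663 with array weights, whose estimate stopped before converging, and 25 and 9 with limma-voom on recovered reads. Leaving out 1 library gave 0 to 155 genes higher and 0 to 97 lower: 155 and 97 without cisplatin replicate 2 and 0 without any other library, where unadjusted p was under 0.05 for 1728 to 2862 genes. With the replicate numbers of the titles as a replicate block, 0 and 0 genes passed, 3089 had an unadjusted p under 0.05 and the smallest adjusted p was 0.123; same-numbered libraries correlated at 0.392, 0.252 and -0.297 in their deviations, so the numbers were not taken to pair them, and not every library correlated best with its own number. Slc13a2 passed in 10 of 18 alternatives, Pi15 in 6 of 17 and Mir343 in 8 of 14. Of 110 genes named with a test, 104 kept their direction under every alternative. The other 6 lay near 0. With array weights C3 turned to 0.12. As single libraries were left out, C3 ran from -0.29 to 0.084, Nr1i2 from -0.22 to 0.0060, Bbc3 from -0.16 to 0.047, Fos from -0.16 to 0.34, Slc47a1 from -0.058 to 0.26 and Nqo1 from -0.10 to 0.22. The cause was not tested. Of 51 list medians 35 kept their sign under every alternative. At 1 FPKM a gene of 1 kilobase rests on 19.3 to 27.2 reads, which limits the genes near the minimum.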
